A study of Homo sapiens with 9 samples.

Results

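The comparison described here is that of 786-0 cells treated with PT2385 against untreated 786-0 cells. 786-0 is an established clear cell renal cell carcinoma line that lacks functional VHL, the E3 ligase component that marks hydroxylated HIFα subunits for degradation, and that carries an inactivating HIF1α change, so that HIF2α (encoded by EPAS1) is present at normal oxygen tension. The untreated cells (WT, n = 3) and the treated cells (WT, 10 μM PT2385 for 48 h, n = 3) were cultured under 21% O2, and all carry the same VHL and HIF1α defects. The comparison was chosen by its sample labels and takes in 6 of the 9 libraries of the series, the 3 others being libraries of a HIF2α knockout of the same line that were not used. The sources used here name no vehicle for the untreated cells, and nothing in the labels tells whether the replicates were separate cultures, so p-values measure the spread between these libraries, which may be technical.

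PT2385 sits in a pocket within the second PAS domain of HIF2α and keeps the protein from pairing with its partner HIF1β, encoded by ARNT. A HIF dimer binds short hypoxia response elements in DNA and activates genes for glycolysis, angiogenesis, erythropoiesis, lipid storage and matrix remodelling, and in clear cell renal carcinoma these genes are active without hypoxia. The compound acts on the protein, so EPAS1 mRNA is no direct measure of it.

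Total counts ran from 11881000 to 14318384 per library. Pearson's r of log2 levels between libraries ran from 0.9803 to 0.9925. It is taken over all tested genes and mostly reflects that genes differ in level. It therefore says little of whether a library deviates in some of them. Levels are given as normalised CPM, in which a gene's counts are scaled to the size of its library. They compare libraries for 1 gene but do not compare genes of different length. Where 2 sets of CPM follow each other, the first is of the untreated and the second of the treated libraries, in the order of replicates 1, 2 and 3, and a number alone in brackets after a gene is its log2 fold change. All 8 markers fixed for renal carcinoma cells were detected, with summed levels of 6389 to 6822 CPM in untreated and 6404 to 6899.7 CPM in treated libraries. VIM held most of each sum, so the sums say little of the other markers. Of the 8 markers 4 were called in the test described next, PAX2 lower and KRT8, KRT18 and CDH6 higher. The 6 endothelial, 6 leukocyte and 4 red cell markers stayed at or under the floor of 3 counts, and 4 of the 6 fibroblast and pericyte markers were over it, with summed levels of 12 to 13.2 and 12.6 to 17.1 CPM and none called.

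Of 15089 genes with enough counts, 1162 (7.70%) were differentially expressed upon PT2385 treatment (edgeR's quasi-likelihood test, Benjamini-Hochberg adjusted p under 0.05), and such genes are referred to as called. There were 465 up-regulated genes (3.08%) and 697 down-regulated genes (4.62%). Decreases were also the larger changes, since the median log2 fold change was 0.44 over the genes called higher and -0.579 over those called lower, and 189 of the 246 genes that changed at least 2-fold fell. Over all tested genes the median log2 fold change was 0.001 and the median absolute value 0.138. Genes called lower held 9.6% of the tested reads in untreated and 6.56% in treated libraries, while genes called higher went from 4.12% to 5.78%. The untreated and treated libraries did not overlap in 1978 tested genes that were higher (13.1%) and 1949 that were lower (12.9%), and in 1161 of the 1162 called genes. The labels do not say what a replicate number marks. Same-numbered libraries deviated together from their group means, with correlations of 0.461, 0.136 and 0.431 for replicates 1, 2 and 3, and were taken as pairs. With the replicate number as a block in the model the test called 2305 genes (15.3%), 1030 higher (6.83%) and 1275 lower (8.45%). All 1162 genes were among them in the same direction. Calls fell to 574 without PT2385 replicate 2, to 581 without untreated replicate 2 and to 654 and 728 without untreated replicates 1 and 3.

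**Figure D1:**
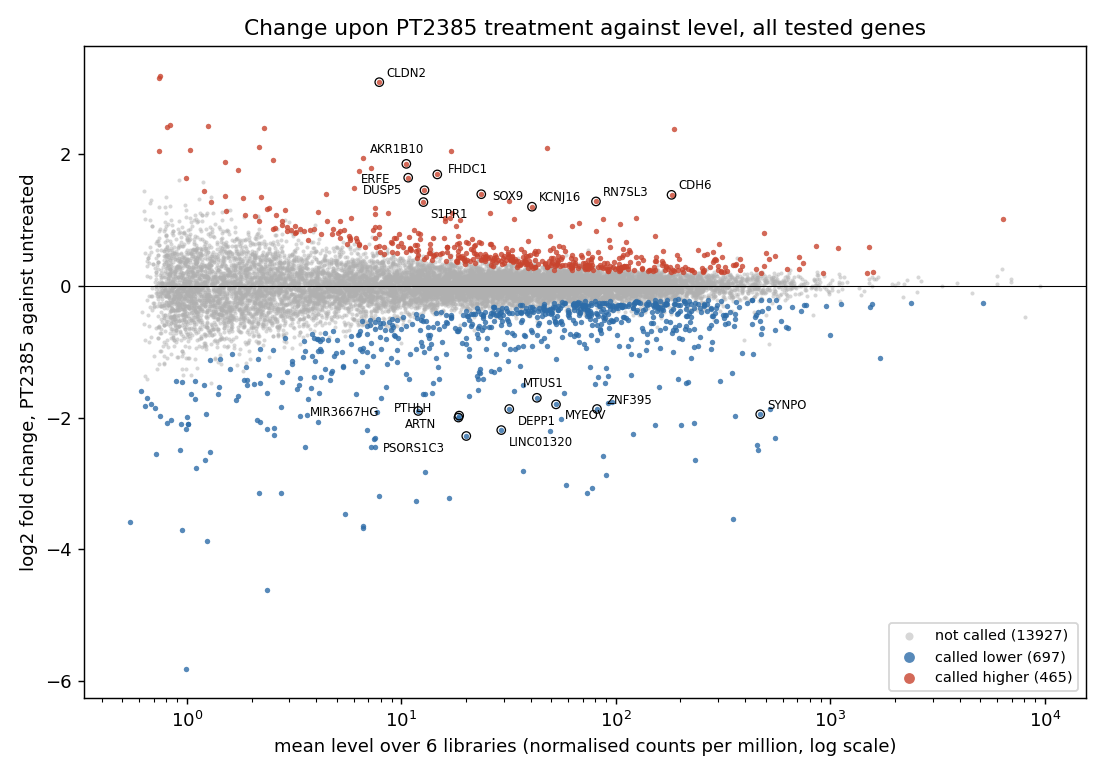
Each point is 1 of 15089 tested genes, with its mean level over the 6 libraries (normalised CPM, log scale) on the x axis and the log2 fold change of PT2385 against untreated on the y axis. Blue points are the 697 genes called lower, red points the 465 called higher, grey points the others. The circled genes with names are the 10 largest changes in each direction named in the text, with blue points reaching further from 0 than red ones at levels over 10 CPM.

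The study put forward 50 genes as the most variable, and 48 of them are among the calls. Outside these 50, 454 genes rose and 660 fell, and these are described here. Counts of called members of a list are to be read beside the shares over all tested genes. These are 3.08% higher and 4.62% lower, and with the replicate block 6.83% and 8.45%. Coordinates are those of GRCh38 in the GENCODE annotation.

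The largest decreases among well counted genes outside those 50 included SYNPO, which encodes the actin-associated protein synaptopodin of podocytes (chromosome 5, 150601080 to 150659207). SYNPO measured 814, 766 and 664 CPM in the untreated and 194, 204 and 182 CPM in the treated libraries, a log2 fold change of -1.95 (standard error 0.0786, edgeR adjusted p = 1.12e-08). ZNF395, a zinc finger transcription factor gene, went from 131, 124 and 129 CPM to 31.9, 34.9 and 38.3 CPM (log2 fold change -1.87). The secreted factor genes PTHLH, for parathyroid hormone-related protein, and ARTN, for the GDNF family ligand artemin, fell by 2.0 and 1.97 on the log2 scale. PTHLH measured 30.6, 27.6 and 30.4 CPM in untreated and 5.74, 6.51 and 9.72 CPM in treated cells, and ARTN measured 32, 28.6 and 28.1 and 9.38, 7.86 and 5.53 CPM. MYEOV and MTUS1, the latter coding for a microtubule-associated protein, fell by 1.8 and 1.7. DEPP1, a FOXO-responsive gene that overlaps RASSF4, with more reads, on the opposite strand, fell by 1.87. Also in this group were 3 long noncoding RNAs, LINC01320 (log2 fold change -2.19), MIR3667HG (-1.9) and PSORS1C3 (-2.28), of which PSORS1C3 overlaps POU5F1 on the same strand and may hold some of its reads. All 10 had adjusted p at or under 9.1e-06.

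The largest increases were led by CLDN2, which encodes claudin-2, the cation- and water-permeable claudin of leaky epithelia such as the proximal tubule (chromosome X, 106900164 to 106930861). CLDN2 counted 1.27, 1.82 and 1.84 CPM in untreated and 16.6, 9.73 and 16 CPM in treated libraries (log2 fold change 3.09, standard error 0.25, edgeR adjusted p = 7.39e-06), and it overlaps MORC4 on the opposite strand. MORC4 has more reads and rose itself, though by less, with 36.5, 35.4 and 37.9 CPM untreated and 57.7, 58.1 and 68.5 CPM treated (log2 fold change 0.75, named after its value was seen). CDH6, the gene of K-cadherin, which marks the developing proximal tubule, rose as well, with 105, 93.5 and 104 CPM untreated and 277, 276 and 234 CPM treated (log2 fold change 1.38, standard error 0.0796, adjusted p = 3.31e-07 by edgeR). SOX9, a transcription factor gene switched on in regenerating tubules, measured 17.1, 11.8 and 10 CPM in untreated and 48.1, 32.1 and 22.2 CPM in treated libraries. The lowest treated SOX9 value stood above the highest untreated value, and the values of both groups spread widely (log2 fold change 1.39, standard error 0.25). AKR1B10, an aldo-keto reductase gene, rose by 1.85 on the log2 scale, FHDC1, a formin gene, by 1.69, and ERFE, coding for the hepcidin-lowering hormone erythroferrone, by 1.64. DUSP5, the nuclear ERK phosphatase gene, rose by 1.45, S1PR1, a sphingosine-1-phosphate receptor gene, by 1.27, and KCNJ16, a potassium channel gene of the kidney tubule, by 1.2. RN7SL3, a copy of the RNA of the signal recognition particle, rose by 1.28, and because near-identical copies exist in the genome its reads cannot be placed with certainty.

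None of the 15 tested genes of HIF subunits and oxygen sensing outside the 50 was called, against 7.70% of all tested genes. EPAS1 measured 272, 266 and 233 CPM in the untreated libraries and 249, 248 and 219 CPM in the treated libraries, so that the groups overlapped (log2 fold change -0.11, standard error 0.0746, edgeR adjusted p = 0.459). HIF1A, whose transcript is still made in this line, measured 25.5, 21.8 and 16.7 CPM and 31.9, 30.4 and 22.4 CPM. It was called higher with the replicate block but not without it (log2 fold change 0.4, adjusted p = 0.168 without and 0.00354 with the block). CITED2, which competes with HIFα for the coactivators CREBBP and EP300, measured 104, 110.2 and 113 CPM untreated and 86.7, 101 and 99.8 CPM treated and was called lower with the block but not without it (log2 fold change -0.18, adjusted p = 0.176 and 0.0326). ARNT (-0.0539), ARNT2 (0.11), the coactivator genes CREBBP (0.00113) and EP300 (0.0348), the hydroxylase genes EGLN1 (0.0638), EGLN2 (-0.13) and HIF1AN (0.0773), and the VHL complex genes VHL (0.0735), CUL2 (0.0369), RBX1 (-0.16), ELOB (0.0956) and ELOC (0.15) had log2 fold changes that passed neither test, and ELOB overlaps SRRM2, which has more reads, on the opposite strand. HIF3A had 0 counts in all 6 libraries. The exception in the list is the prolyl hydroxylase gene EGLN3, itself a HIF target and 1 of the 50, which went from 134, 120.4 and 139 CPM to 13.9, 13.6 and 16.8 CPM (log2 fold change -3.14, standard error 0.0952, adjusted p = 1.35e-09 by edgeR).

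HIF target genes were lower wherever they were called without the replicate block. Of 30 tested members outside the 50, 12 were called lower (background 4.62%) and none higher, and 24 of 30 had a negative log2 fold change, with a median of -0.276. With the block 15 were lower and 1 higher (background 8.45% and 6.83%), the latter being BHLHE41, a repressor gene of the clock related to BHLHE40, with 47.6, 48.2 and 55.8 CPM untreated and 59.3, 58.7 and 60 CPM treated (log2 fold change 0.23, edgeR adjusted p = 0.102 without and 0.0283 with the block, named after its value was seen). The 5 further members within the 50, which the study chose on these samples, were lower as well. The list does not separate targets of HIF1α, which is inactivated in this line, from those of HIF2α. Members that were not called are thus not shown to be HIF2α targets that PT2385 leaves unchanged. The HIF core motif is ACGTG or GCGTG. The form ACGTG is marked here on both strands of the 250 bases before the RefSeq start site. The promoters of 4 called genes that fell are shown as examples picked because they hold ACGTG in differing numbers. These are BHLHE40 of this list, LDHA and ENO2 of the glycolysis list and PLIN2 of the lipid droplet list. They are written 5′ to 3′ on the strand of the gene from RefSeq on GRCh38.p14, with ACGTG or its reverse complement CACGT in capitals, and where both overlap as CACGTG the letters are also an E-box, the site of other basic helix-loop-helix factors. The windows are chr11:18394313-18394562 on the plus strand for LDHA, chr12:6914330-6914579 on the plus strand for ENO2, chr9:19127493-19127742 on the minus strand for PLIN2 and chr3:4979187-4979436 on the plus strand for BHLHE40.
LDHA: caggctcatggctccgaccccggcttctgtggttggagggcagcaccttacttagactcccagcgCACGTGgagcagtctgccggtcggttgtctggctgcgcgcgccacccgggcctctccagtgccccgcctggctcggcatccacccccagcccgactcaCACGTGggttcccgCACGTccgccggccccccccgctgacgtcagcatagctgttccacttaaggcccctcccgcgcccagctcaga
ENO2: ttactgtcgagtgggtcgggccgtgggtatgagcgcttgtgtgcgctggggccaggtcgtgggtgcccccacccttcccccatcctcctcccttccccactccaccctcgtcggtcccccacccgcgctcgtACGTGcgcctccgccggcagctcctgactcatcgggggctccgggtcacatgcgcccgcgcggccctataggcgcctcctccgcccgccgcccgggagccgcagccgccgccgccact
PLIN2: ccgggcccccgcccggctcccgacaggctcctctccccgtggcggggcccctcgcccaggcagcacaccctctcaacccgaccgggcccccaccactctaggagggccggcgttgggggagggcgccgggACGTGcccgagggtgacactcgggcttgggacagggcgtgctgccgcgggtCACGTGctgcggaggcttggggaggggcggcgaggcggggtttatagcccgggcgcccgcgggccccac
BHLHE40: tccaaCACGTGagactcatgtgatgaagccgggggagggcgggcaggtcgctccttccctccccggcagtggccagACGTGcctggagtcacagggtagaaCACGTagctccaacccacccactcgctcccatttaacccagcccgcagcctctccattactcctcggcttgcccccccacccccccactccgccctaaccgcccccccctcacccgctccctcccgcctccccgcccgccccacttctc
LDHA held 5 matches, of which 4 form 2 copies of CACGTG, ENO2 held 1 match, PLIN2 held 3 and BHLHE40 held 4. The form GCGTG, left in lower case, had 1 match in PLIN2 and 0 in LDHA, ENO2 and BHLHE40. Among all 27305 promoter windows of 300 bases in the RefSeq table, 5900 (21.6%) held ACGTG on either strand. A window was found for 78.1% of the protein-coding genes called lower and for 78.6% of those called higher, against 82.2% of all tested protein-coding genes. Among the windows found, ACGTG stood in 24.9% for genes called lower, 23.6% for genes called higher and 27.2% for all. Either form stood in 58.1%, 62.8% and 64.2%. With so many windows missing this is no valid comparison.

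Among the HIF targets, HILPDA, an inhibitor of triglyceride lipase on lipid droplets, measured 30.2, 32.4 and 36.9 CPM in untreated and 11.3, 13.2 and 15.3 CPM in treated libraries (log2 fold change -1.32, standard error 0.12, edgeR adjusted p = 2.23e-05). EDN1, the gene of the vasoconstrictor endothelin-1, measured 8.6, 8.77 and 10.6 CPM and 3.48, 4.64 and 3.15 CPM (-1.31, adjusted p = 0.000631 by edgeR). BHLHE40, a transcriptional repressor that also acts in the circadian clock, measured 216, 216 and 198 CPM untreated and 123, 102 and 103 CPM treated. The mitophagy receptor gene BNIP3L measured 45, 41.5 and 47.8 CPM and 23.9, 24 and 20.9 CPM. Both were lower to a like degree, with log2 fold changes of -0.94 and -0.97. BNIP3, the closely related mitophagy receptor gene and a known HIF target, was not called, with 52.5, 62.1 and 54.8 CPM untreated and 63.1, 58.3 and 71.2 CPM treated (log2 fold change 0.18, adjusted p = 0.27 by edgeR). CA9, the carbonic anhydrase gene that marks most clear cell renal carcinomas, had 0 counts in every library.

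Genes of glucose uptake and glycolysis were mostly lower where called, with 9 of 27 tested members lower, 1 higher and a median log2 fold change of -0.154. LDHA, the lactate dehydrogenase subunit that regenerates NAD+ for glycolysis, measured 1238, 1234 and 1284 CPM in untreated and 723, 715 and 797 CPM in treated cells (log2 fold change -0.75, standard error 0.0566, edgeR adjusted p = 4.05e-06). ENO2, an enolase gene, measured 68.1, 70.1 and 76 CPM and 32.1, 34.8 and 32.5 CPM (-1.11, adjusted p = 1.48e-06 by edgeR). ALDOA, an aldolase gene, measured 29.9, 32.4 and 31 CPM and 21.7, 18.3 and 20.4 CPM (-0.62). It overlaps ENSG00000285043 on the same strand, so reads that fall in both may be missing from its counts. HK2, coding for the hexokinase that takes glucose into the pathway, measured 81.6, 89.4 and 83.7 CPM untreated and 50.4, 63.6 and 71.1 CPM treated (log2 fold change -0.46). The glucose transporter gene SLC2A3 measured 25.6, 24.2 and 20.6 CPM and 18.4, 14.3 and 14.4 CPM (-0.58). The phosphofructokinase genes split, since PFKP (-0.54) and PFKL (-0.28) fell and PFKM (0.29) was the 1 member that rose, and PKM (-0.26) and PDK1 (-0.35), the kinase that holds pyruvate back from mitochondria, also fell. These 5 were named after their values were seen. For glycogen, 2 of 15 tested genes fell and 1 rose. PPP1R3B, the subunit that targets phosphatase 1 to glycogen and activates its synthesis, had the largest change, from 22.4, 19.5 and 20.8 CPM to 6.55, 6.81 and 7 CPM (log2 fold change -1.62, adjusted p = 2.07e-06 by edgeR). The branching enzyme gene GBE1 fell by 0.47, the phosphorylase gene PYGB rose by 0.21, and the synthase gene GYS1 was called higher with the block but not without it (0.19, adjusted p = 0.117 and 0.0392). Calls were lost in 4 of the 6 fits that left out 1 library for HK2 (adjusted p up to 0.122, without untreated replicate 2). For SLC2A3 3 fits lost it (up to 0.0812, without PT2385 replicate 2) and for PYGB 5 (up to 0.177, without PT2385 replicate 2). They were lost in 2 of these fits for PFKL (up to 0.0944) and in 3 each for PFKM (up to 0.0884), PKM (up to 0.145) and PDK1 (up to 0.0653), in each case with the highest adjusted p without untreated replicate 2.

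**Figure D2:**
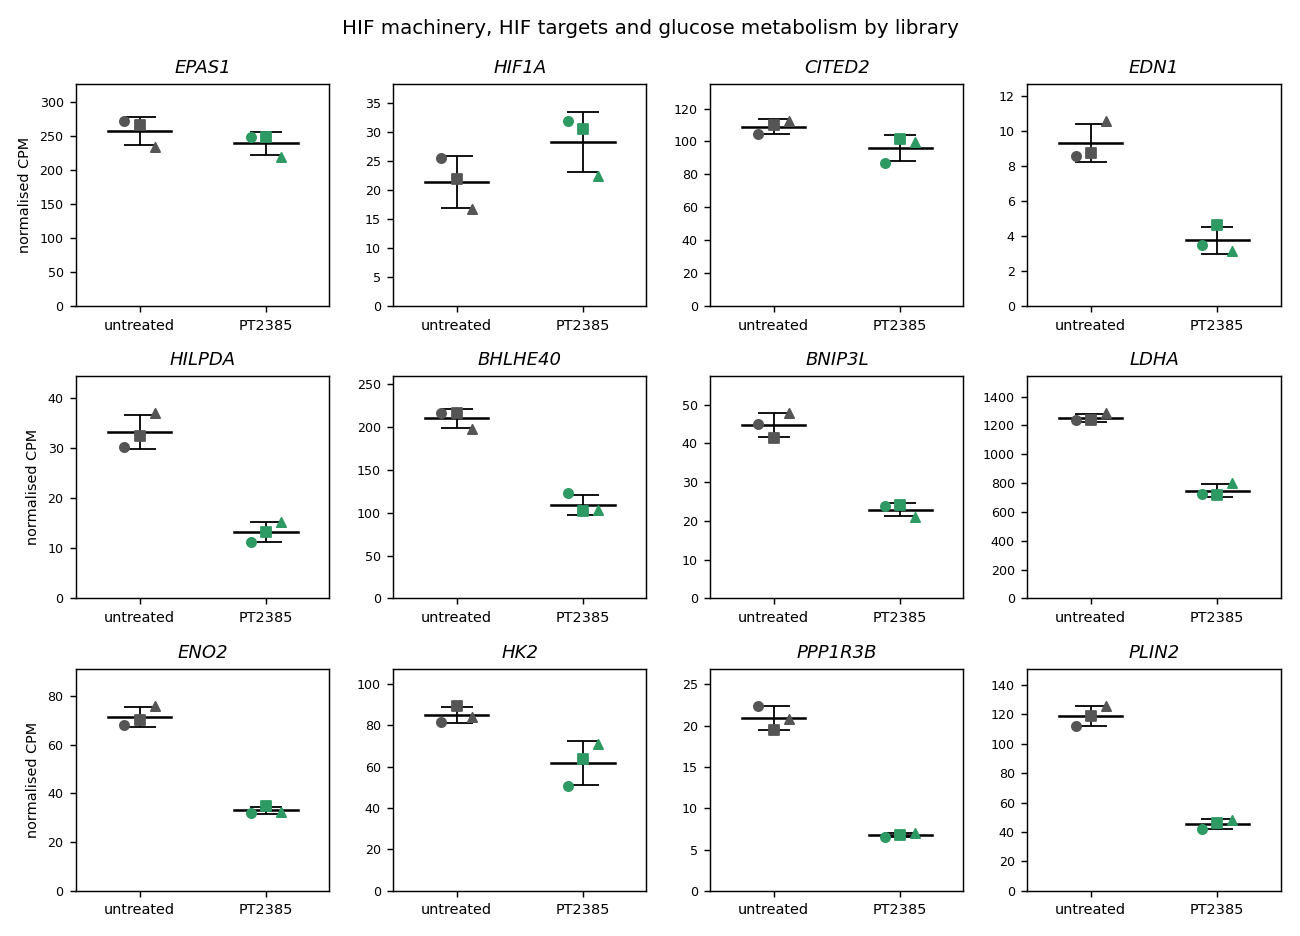
Normalised CPM of 12 genes in each library, with untreated libraries in grey and PT2385 libraries in green, circles, squares and triangles for replicates 1, 2 and 3, and lines and bars for the mean and SD of 3 libraries. The groups overlap for EPAS1 and HIF1A and are apart for the other 10 genes, with the widest relative gaps for PPP1R3B, PLIN2 and HILPDA.

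Genes of lipid droplets and lipid handling moved both ways, with 4 of 23 tested members higher and 5 lower. PLIN2, the coat protein of lipid droplets, measured 112, 119 and 126 CPM untreated and 41.8, 46.4 and 47.9 CPM treated (log2 fold change -1.39, standard error 0.0755, edgeR adjusted p = 1.76e-07). LPCAT1, which remodels phosphatidylcholine, measured 496, 510.5 and 492 CPM and 199, 200.5 and 197 CPM (-1.33, standard error 0.0533). The apolipoprotein L genes differed in direction, as APOL2 fell from 261, 274 and 311 CPM to 100.4, 108 and 108 CPM (-1.42). APOL3, at few counts, rose from 1.18, 1.24 and 1.34 CPM to 2.59, 2.62 and 4.34 CPM (1.35, adjusted p = 0.0134 by edgeR). This call was lost in 2 of 6 fits with 1 library left out, up to 0.064 without untreated replicate 2. CPT1A, the gate of fatty acid entry into mitochondria (0.72), and the triglyceride lipase gene PNPLA2 (0.27) rose, and the HDL receptor gene SCARB1 fell (-0.42). These 3 were named after their values were seen, and the calls of CPT1A and PNPLA2 were lost in 2 and 4 of the 6 fits, up to 0.0779 without untreated replicate 1 and 0.137 without PT2385 replicate 2.

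Sterol and fatty acid synthesis was the list with the lowest median, -0.379 over 33 tested members, of which 27 were negative. With 1 library left out the median ranged from -0.502, without untreated replicate 3, to -0.222, without PT2385 replicate 3, and that of HIF targets from -0.307 to -0.195. Without the block 2 of the 33 were called. EBP, a sterol isomerase gene, measured 88.6, 96.5 and 75.1 CPM untreated and 67.7, 64.2 and 58 CPM treated (-0.46, edgeR adjusted p = 0.0114). ELOVL6, a fatty acid elongase gene, measured 108, 108 and 89 CPM and 81.7, 72.3 and 70 CPM (-0.44, adjusted p = 0.00924 by edgeR). Each was lost in 2 or 3 of the 6 fits that left out 1 library, at adjusted p up to 0.0801 and 0.0715, both without untreated replicate 2. With the replicate block 21 were lower and 1 higher, against 8.45% and 6.83% of all genes, and 26 of 33 were lower in all 3 pairs of same-numbered libraries (3470 of 15089 over all genes). The median ratio of the list was -0.28, -0.39 and -0.34 on the log2 scale in the pairs of replicates 1, 2 and 3. Levels of these genes differed between replicate numbers in both groups. INSIG1, the sterol-sensitive anchor of the SREBP pathway, measured 559, 617 and 336 CPM in untreated replicates 1, 2 and 3 and 369, 321 and 166 CPM in their treated partners (log2 fold change -0.82, adjusted p = 0.0765 without and 2.86e-07 with the block). Replicate 3 was thus low in both groups. SCD, the stearoyl-CoA desaturase gene, measured 924, 698 and 383 CPM and 501, 375 and 210.1 CPM (-0.89, adjusted p = 0.107 and 8.46e-10). LSS, coding for lanosterol synthase, measured 215, 224 and 127 CPM and 136, 139.5 and 89.8 CPM (-0.63, adjusted p = 0.0764 and 1.18e-06). HMGCS1 (-0.52), FDFT1 (-0.5), MSMO1 (-0.49) and the pathway's transcription factor gene SREBF2 (-0.38) were likewise called with the block but not without it. SREBF1 (-0.11) and ACLY (0.0218) were called by neither fit, and SREBF1 overlaps RAI1, which has more reads, on the opposite strand. Members other than EBP and ELOVL6 were named after their values were seen.

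**Figure D3:**
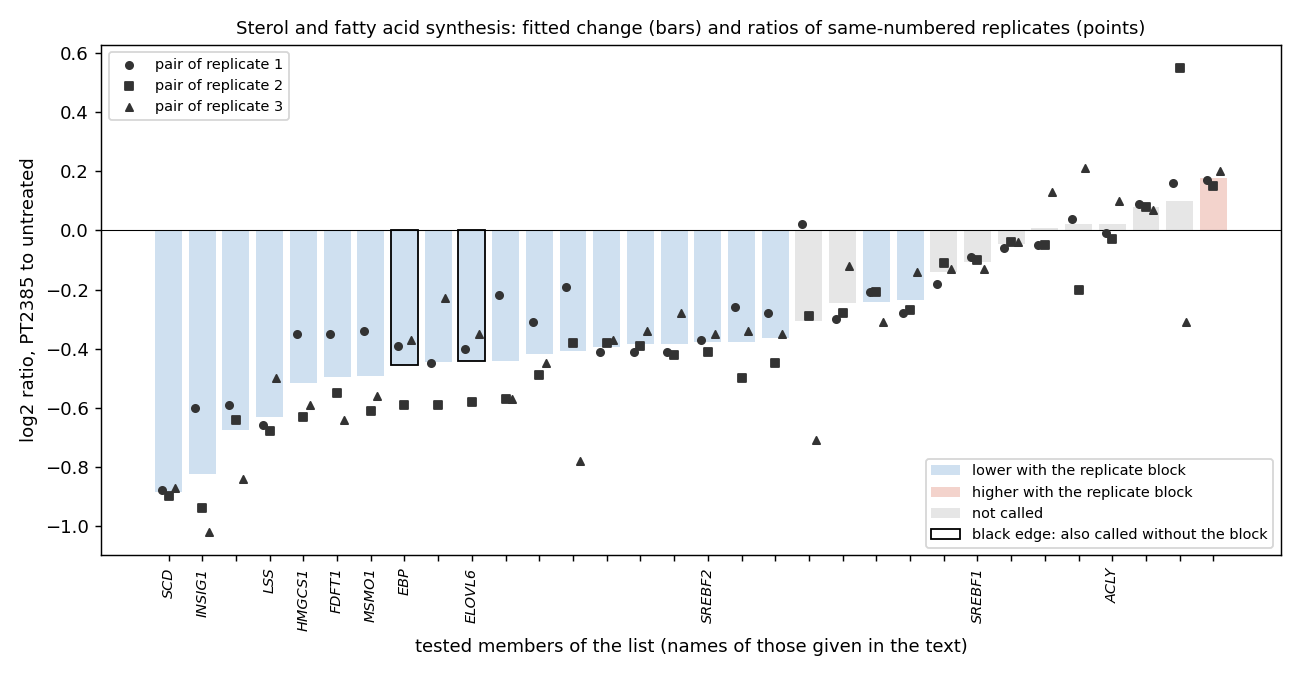
Bars give the fitted log2 fold change of PT2385 against untreated for 32 of the 33 tested members of the sterol and fatty acid synthesis list, and points give the log2 ratio of treated to untreated CPM within each pair of same-numbered replicates. Blue bars mark the 21 members called lower and the red bar the 1 called higher with the replicate block, grey bars the others, and black edges the 2 that were also called without it, EBP and ELOVL6.

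Growth factor genes moved in both directions, with 3 of 15 tested members higher and 6 lower. PDGFB, coding for the ligand that recruits pericytes, measured 155, 150.0 and 139.9 CPM in untreated and 85, 82.4 and 68.1 CPM in treated libraries (log2 fold change -0.92, standard error 0.0851, edgeR adjusted p = 2.23e-05). STC1, the gene of the glycoprotein stanniocalcin-1, measured 17.2, 16.4 and 24 CPM and 4.2, 5.32 and 8.6 CPM (-1.65, adjusted p = 0.000583 by edgeR). The EGF family ligands parted, for TGFA fell (-0.91) while AREG rose from 4.13, 5.21 and 5.1 CPM to 9.62, 9.44 and 11.8 CPM (1.09) and EREG (0.8) and HBEGF (0.46) rose too. TGFA, EREG and HBEGF were named after their values were seen, and the call of HBEGF was lost in 3 of 6 fits with 1 library left out, up to 0.184 without PT2385 replicate 2. EGFR, the receptor of these ligands, measured 739.7, 700.2 and 756 CPM untreated and 543, 574 and 643 CPM treated (-0.32, adjusted p = 0.0125 by edgeR, lost in 3 of 6 fits with 1 library left out, up to 0.0761 without PT2385 replicate 2).

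Among receptor tyrosine kinases and their feedback inhibitors, 4 of 27 tested members rose and 3 fell, with 8 and 5 under the replicate block. LRIG1, an inhibitor of EGF receptors that overlaps SLC25A26, with more reads, on the opposite strand, fell from 5.82, 6.79 and 6.11 CPM to 2.51, 2.7 and 2.52 CPM (log2 fold change -1.27). DUSP5 rose from 8.6, 5.63 and 6.28 CPM to 23, 16.1 and 17.2 CPM (1.45, standard error 0.18, edgeR adjusted p = 0.000264). FGFR2 rose from 19.6, 21.1 and 19.8 CPM to 29.2, 34.3 and 30.8 CPM (0.64) and FGFR3 from 6.92, 5.63 and 4.69 CPM to 10.5, 8.91 and 10.4 CPM (0.79). The call of FGFR3 was lost without untreated replicate 2 (adjusted p = 0.0601 by edgeR).

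Of 19 tested G1 regulators, 2 rose and 1 fell, and 3 and 3 did so with the block. CDKN1A, the gene of the CDK inhibitor p21, measured 46.1, 47.3 and 42.6 CPM untreated and 66.9, 63.9 and 73 CPM treated (log2 fold change 0.58, standard error 0.0769, edgeR adjusted p = 0.000441). CCND3, a D cyclin gene, rose by 0.25 near the threshold (adjusted p = 0.0494 by edgeR, lost in 5 of 6 fits with 1 library left out, up to 0.201 without untreated replicate 1). The stress gene GADD45B fell from 36.1, 38.2 and 37.5 CPM to 25.2, 25.8 and 26.2 CPM (-0.53). Genes of DNA replication and mitosis changed by small amounts, with 2 of 43 tested members lower (4.65%, close to the 4.62% of all genes), 11 lower and 1 higher with the block (8.45% and 6.83% of all genes), and a median log2 fold change of -0.108. MKI67, the proliferation marker, measured 1156, 1221 and 1312 CPM in untreated and 1036, 1013 and 1003 CPM in treated libraries (-0.27, adjusted p = 0.0115 by edgeR), and the spindle motor gene KIF11 175, 183 and 194 CPM and 162, 153 and 142 CPM (-0.27). These 2 calls were lost in 2 and 3 of the 6 fits that left out 1 library (adjusted p up to 0.0654 without PT2385 replicate 2 and 0.119 without untreated replicate 3).

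Basement membrane genes outside the 50 rose where they were called, 5 of 19 tested members, with 8 higher and 2 lower under the block and a median log2 fold change of 0.15. Of the 2 further members within the 50, 1 was called lower and none higher. COL4A1, a chain of the network-forming collagen IV, measured 421, 410.5 and 409 CPM untreated and 589.6, 601 and 558 CPM treated (log2 fold change 0.49, standard error 0.0538, edgeR adjusted p = 9.25e-05). It overlaps its divergent neighbour COL4A2, which has more reads and rose by 0.25 (named after its value was seen, and lost in 3 of 6 fits with 1 library left out, up to 0.0753 without untreated replicate 2). LAMB1, the laminin β1 chain gene, measured 463, 465 and 477 CPM and 634, 638 and 646 CPM (0.45). TINAGL1 (0.31) and COL4A5 (0.73) rose too, and their calls were lost in 2 and 5 of the 6 fits with 1 library left out (adjusted p up to 0.0782 without untreated replicate 1 and 0.219 without PT2385 replicate 2). Of 23 tested interstitial matrix genes 6 rose and 2 fell. COL6A1 went from 17.7, 18 and 19.2 CPM to 27.6, 28.5 and 29.9 CPM (0.65), and CCN2, the matricellular connective tissue growth factor, from 9.78, 15 and 12.9 CPM to 22.6, 26.7 and 25.9 CPM (1.0). The latent TGF-β binding protein genes split, as LTBP1 fell from 7.09, 7.2 and 5.52 CPM to 1.7, 1.95 and 1.12 CPM (-2.06). LTBP2 rose from 2.53, 4.3 and 3.51 CPM to 8.17, 5.99 and 6.51 CPM (0.99, lost without untreated replicate 1 at adjusted p = 0.0611 by edgeR).

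Enzymes that process and cross-link collagen were called in both directions, with 5 of 22 tested members lower and 3 higher. TGM2, the gene of transglutaminase 2, measured 520.5, 628 and 604 CPM untreated and 264, 267 and 322 CPM treated (log2 fold change -1.04, standard error 0.0887, edgeR adjusted p = 1.07e-05). LOXL2, a lysyl oxidase gene, measured 623, 569.9 and 592 CPM and 352, 346 and 375 CPM (-0.73). PLOD2, the lysyl hydroxylase gene, measured 405, 407 and 377 CPM and 298, 288 and 216 CPM (-0.57). The prolyl hydroxylase subunit gene P4HA1 measured 99.9, 90.8 and 91.1 CPM and 73.3, 65.7 and 57.6 CPM (-0.52). In contrast PLOD1 (0.29) and the collagen chaperone gene SERPINH1 (0.49), named after their values were seen, rose, the call of PLOD1 being lost in 2 of 6 fits with 1 library left out, up to 0.0605 without untreated replicate 3. Matrix proteases and their inhibitors had 2 of 28 tested members higher and 5 lower. PLAU, coding for urokinase, rose from 64.6, 65.6 and 62.3 CPM to 80.4, 87.4 and 85.2 CPM (0.39). ADAM9 (-0.41) and MMP24 (-0.34) fell, and MMP14, the membrane-type collagenase gene, was not called (0.14, adjusted p = 0.242 by edgeR). The calls of ADAM9 and MMP24 were lost in 1 and 2 of the 6 fits with 1 library left out, up to 0.0519 and 0.0855, both without untreated replicate 1.

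For integrins and focal adhesion, 3 of 30 tested members rose and 3 fell. ITGB3, the β3 integrin gene, measured 47.8, 51.6 and 37.9 CPM in untreated and 94.2, 101 and 69.3 CPM in treated libraries (log2 fold change 0.95, standard error 0.14, edgeR adjusted p = 0.00101). ITGB6, the epithelial β6 chain gene, rose from 5.65, 5.13 and 5.69 CPM to 10.3, 10.1 and 10.3 CPM (0.9), and ITGB5 fell (-0.45, named after its value was seen). ITGB1, the most widely paired β chain, had overlapping values, with 951, 920.3 and 934 CPM and 987, 922 and 858 CPM (-0.0201). The kindlin gene FERMT1 rose from low counts (0.86) and LIMS2, an adaptor of integrin-linked kinase, fell (-0.59). These calls were lost in 5 and 2 of the 6 fits with 1 library left out (adjusted p up to 0.102 without untreated replicate 3 and 0.142 without untreated replicate 2). Of 42 tested actin cytoskeleton genes, 4 rose and 3 fell, with 10 and 7 under the block. LIMA1, an actin bundling protein gene, measured 62.5, 73 and 76.7 CPM and 111, 118 and 115 CPM (0.7). The myosin light chain gene MYL9 measured 112, 118 and 117 CPM and 155, 150.5 and 151 CPM (0.39). DIAPH2, a formin gene, fell from 79.3, 78.7 and 86.1 CPM to 60.7, 57.8 and 48.2 CPM (-0.55), and ACTB was called with the block but not without it (0.1, adjusted p = 0.235 and 0.0315). ACTA2, which overlaps FAS, with more reads, on the opposite strand, rose from 2.11, 1.9 and 1.26 CPM to 5.58, 2.47 and 3.78 CPM (1.15). The call of ACTA2 was lost in 4 of 6 fits with 1 library left out, up to 0.163 without untreated replicate 3.

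Of 28 tested cell junction genes 2 rose, CLDN2 and CDH6, and 1 fell, against 5 and 2 with the block. CLDN4, a barrier-forming claudin gene, measured 90.7, 101 and 95.4 CPM untreated and 69.1, 67.5 and 72.8 CPM treated (log2 fold change -0.45, edgeR adjusted p = 0.00117). CDH1, the gene of E-cadherin, had 0 counts in 5 libraries and 1 in the sixth. Of 9 tested EMT genes, SNAI2 rose from 26.5, 27.4 and 20.5 CPM to 40.7, 38.2 and 31.8 CPM (0.57) and ZEB2 fell from 136, 125 and 117 CPM to 105, 96 and 70.2 CPM (-0.47), with 2 higher and 3 lower under the block. ZEB1 measured 50.2, 50.1 and 46.6 CPM and 52.4, 40.3 and 25.5 CPM and was not called (-0.32, adjusted p = 0.357 by edgeR). The calls of SNAI2 and ZEB2 were lost in 2 and 4 of the 6 fits with 1 library left out (up to 0.0718 without PT2385 replicate 2 and 0.144 without untreated replicate 1).

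Semaphorins, plexins and other guidance genes had 6 of 31 tested members higher and 4 lower. SEMA4B, a transmembrane semaphorin gene, measured 464, 420.4 and 450.5 CPM in untreated and 168, 153 and 169.8 CPM in treated cells (log2 fold change -1.44, standard error 0.0651, edgeR adjusted p = 2.91e-08). Of the secreted class, SEMA3F rose from 4.13, 2.48 and 3.1 CPM to 12.4, 9.88 and 11.1 CPM (1.78, adjusted p = 7.17e-05 by edgeR). SEMA3A rose from 4.47, 4.22 and 4.35 CPM to 6.47, 7.64 and 7.49 CPM (0.73, lost in 2 of 6 fits with 1 library left out, up to 0.0715 without PT2385 replicate 2). NRP1 (0.55), a coreceptor of secreted semaphorins, and PLXND1 (0.71) were also higher. SEMA3C, of the same class, was lower with the block but not without it (-0.4, adjusted p = 0.0573 and 0.000222). The ephrin ligand genes EFNA1 (-0.8) and EFNB2 (0.42) went in opposite directions. NRP1, PLXND1, SEMA3C and EFNB2 were named after their values were seen, and the call of EFNB2 was lost in 3 of 6 fits with 1 library left out, up to 0.0841 without untreated replicate 1.

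In the Notch list 1 of 17 tested members rose and 2 fell (17.6% called, against 7.70% of all genes). With the block the numbers were the same, against 15.3% of all genes. The target gene HES1 rose from 3.71, 3.14 and 2.59 CPM to 11.6, 6.22 and 8.67 CPM (log2 fold change 1.48, standard error 0.24, edgeR adjusted p = 0.0021). The fringe gene MFNG (-0.67) fell, and the DNA-binding partner gene RBPJ fell from 173, 172 and 171 CPM to 146, 147 and 126 CPM (-0.3). In the Wnt list the receptor genes FZD4 (0.66), which overlaps PRSS23, with more reads, on the opposite strand, and LGR4 (0.5) rose and PORCN, the acyltransferase of Wnt ligands, fell (-0.48), with 6 of 20 tested members higher and 2 lower under the block. In the TGF-β and BMP list 5 of 31 tested members rose and 4 fell. ID1, a BMP-responsive inhibitor of basic helix-loop-helix factors, measured 71.9, 68.8 and 74.8 CPM untreated and 144, 127 and 139.5 CPM treated (0.93, standard error 0.0706, adjusted p = 4.16e-06 by edgeR), and ID3 rose as well (0.48, named after its value was seen). INHBB, an activin subunit gene, fell from 102, 117 and 98.8 CPM to 62.7, 69.3 and 60.6 CPM (-0.72), and of the ligand genes TGFB1 fell (-0.26) and the low-count TGFB3 rose (0.98), both overlapping genes with more reads. The YAP/TEAD list had 3 of 25 tested members higher and 4 lower, and 5 and 7 with the block. IGFBP3 fell from 558, 534 and 671 CPM to 346, 364 and 421 CPM (-0.64) and ANKRD1 rose by 0.34. CCN1, the closest relative of CCN2, was lower with the block but not without it, from 350.0, 443 and 349.7 CPM to 294, 382 and 295 CPM (-0.23, adjusted p = 0.256 and 0.00129). With 1 library left out the highest adjusted p was 0.0605 for MFNG and 0.146 for PORCN without PT2385 replicate 2, 0.0926 for RBPJ, 0.0529 for FZD4, 0.106 for TGFB1 and 0.0827 for ANKRD1 without untreated replicate 2, and 0.0946 for TGFB3 without untreated replicate 1.

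Cytokine genes and NF-κB targets had 5 of 28 tested members higher and 4 lower. IL18, the gene of an interferon-γ inducing cytokine, measured 2.45, 2.81 and 2.93 CPM in untreated and 8.33, 11 and 12 CPM in treated libraries (log2 fold change 1.94, standard error 0.19, edgeR adjusted p = 3.56e-05). CX3CL1, the membrane-bound chemokine fractalkine, measured 9.45, 11.2 and 10.9 CPM and 15.9, 21 and 27.4 CPM (1.03). TNFSF10, the gene of the death ligand TRAIL, fell from 292, 273 and 350.5 CPM to 145, 141 and 143 CPM (-1.09, adjusted p = 4.51e-06 by edgeR). CXCL8, a neutrophil chemokine gene, fell from 28.9, 28.7 and 25.3 CPM to 19.6, 14.8 and 18.7 CPM (-0.64). NFKBIA, the feedback inhibitor gene of the pathway, was not called, with 60.6, 62.3 and 63 CPM and 52.9, 61.3 and 67 CPM (-0.0356).

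Interferon response genes were called higher in 4 of 38 tested members and lower in none (10.5% called, against 7.70% of all genes). Under the block 9 were higher and none lower (23.7%, against 15.3%). Of the 4, 3 had few counts, IFIT1 with 4.05, 3.64 and 3.51 CPM and 6.06, 5.69 and 8.04 CPM (0.82), PSMB9 with 3.71, 3.14 and 3.35 CPM and 6.39, 6.89 and 5.25 CPM (0.86) and GBP2 with 1.52, 1.57 and 2.34 CPM and 3.4, 3.59 and 3.01 CPM (0.87). IFIT1 and PSMB9 overlap genes with more reads on the opposite strand. The calls of IFIT1, PSMB9 and GBP2 were lost in 2, 2 and 4 of the 6 fits with 1 library left out (up to 0.0853 without untreated replicate 2, 0.0719 without PT2385 replicate 2 and 0.17 without untreated replicate 1). Complement genes fell where called, 3 of 16. C3, the central complement protein, whose gene overlaps GPR108, with more reads, on the same strand, measured 10.7, 9.93 and 14.9 CPM and 5.09, 3.89 and 6.65 CPM (-1.18, adjusted p = 0.00407 by edgeR). The membrane inhibitors CD59, with 126, 131 and 132 CPM and 85.1, 95.2 and 96.7 CPM (-0.49), and CD46 (-0.28, lost in 5 of 6 fits, up to 0.153 without untreated replicate 2) fell with it. In prostaglandin and eicosanoid synthesis 1 of 16 tested members rose, EPHX1, a microsomal epoxide hydrolase gene (0.61), and 4 with the block.

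NRF2 target genes, which encode enzymes of glutathione, thioredoxin and NADPH supply and are switched on by electrophiles, rose in 8 of 27 tested members and fell in none (background 3.08% and 4.62%). The log2 fold change was positive in 26 of 27, with a median of 0.151, and 21 of 27 were higher in all 3 pairs of same-numbered libraries (3615 of 15089 over all genes). AKR1B10 measured 5.23, 5.54 and 2.93 CPM in untreated and 17.4, 16.5 and 15.6 CPM in treated libraries (standard error 0.18, edgeR adjusted p = 4.25e-05). EPHX1 measured 46.2, 41.9 and 40.9 CPM and 62.4, 68.8 and 65.2 CPM. NQO1, the quinone reductase gene used as a marker of the pathway, changed less, with 99.6, 102 and 91.5 CPM and 121, 119 and 121 CPM (0.3, adjusted p = 0.0126 by edgeR). GSR (0.47), TXNRD1 (0.34) and FTL (0.3), named after their values were seen, and OSGIN1 (0.56) rose too. OSGIN1 overlaps MLYCD, which has more reads, on the same strand. The calls of NQO1 and OSGIN1 were lost in 2 and 4 of the 6 fits with 1 library left out, up to 0.0653 and 0.193, both without PT2385 replicate 2. The call of TXNRD1 was lost in 1, at 0.0575 without untreated replicate 2, and that of FTL in 5, up to 0.18 without PT2385 replicate 2.

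Outside the genes put forward by the study, the ATF4 and amino acid list was lower where called without the block. Of 38 tested members 7 were lower and none higher, and 10 were lower and 2 higher with the block. Among the genes put forward by the study, 1 further member of the list was called higher and 1 lower. TRIB3, a pseudokinase gene induced by ATF4, measured 255, 242 and 207 CPM untreated and 89.9, 82.2 and 71.4 CPM treated (log2 fold change -1.53, standard error 0.0964, edgeR adjusted p = 7.29e-07). SLC7A5, the large neutral amino acid transporter gene LAT1, measured 2232, 2314 and 2405 CPM and 989, 1011 and 1243 CPM (-1.1), and SLC3A2, its heavy chain, fell by 0.46. STC2 went from 198, 191 and 153 CPM to 103, 100.4 and 95.6 CPM (-0.86). ATF3 fell from 12.1, 11.2 and 6.86 CPM to 6.39, 5.54 and 5.6 CPM (-0.78, lost in 3 of 6 fits with 1 library left out, up to 0.156 without untreated replicate 2). SLC7A1 (-0.22) and SLC38A2 (-0.45) fell. SLC3A2, SLC7A1 and SLC38A2 were named after their values were seen, and SLC7A5 is also a known HIF2α target. The calls of SLC7A1 and SLC38A2 were lost in 5 and 3 of the 6 fits, up to 0.181 without untreated replicate 2 and 0.138 without PT2385 replicate 2. ATF4 itself measured 268, 264 and 222 CPM and 232, 211 and 214 CPM and was called lower with the block but not without it (-0.2, adjusted p = 0.16 and 0.0226). The median log2 fold change of the list was -0.035.

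Of 25 tested genes of iron and copper handling 6 rose and 2 fell. Among the 6 were 5 metallothioneins, the small metal-binding proteins, with MT2A at 225, 271 and 253 CPM untreated and 314, 324 and 340.5 CPM treated (log2 fold change 0.39, standard error 0.0716, edgeR adjusted p = 0.00539). The others were MT1X (0.42), MT1F (0.73), MT1E (0.24) and MT1G, which rose from 0.253, 0.414 and 0.0837 CPM to 1.21, 1.5 and 1.4 CPM (2.41), with at most 5 counts in an untreated library. The last 2 were named after their values were seen, and the family shares near-identical sequence. TFRC, the transferrin receptor gene, fell from 854, 849 and 782 CPM to 650.4, 659.9 and 602 CPM (-0.38, adjusted p = 0.00159 by edgeR), and the metal importer gene SLC39A14 from 288, 292 and 271 CPM to 204, 216 and 227 CPM (-0.4). The call of MT1X was lost in 4 of 6 fits with 1 library left out, up to 0.0875 without untreated replicate 3, and that of MT1E in all 6, up to 0.169 without untreated replicate 1.

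**Figure D4:**
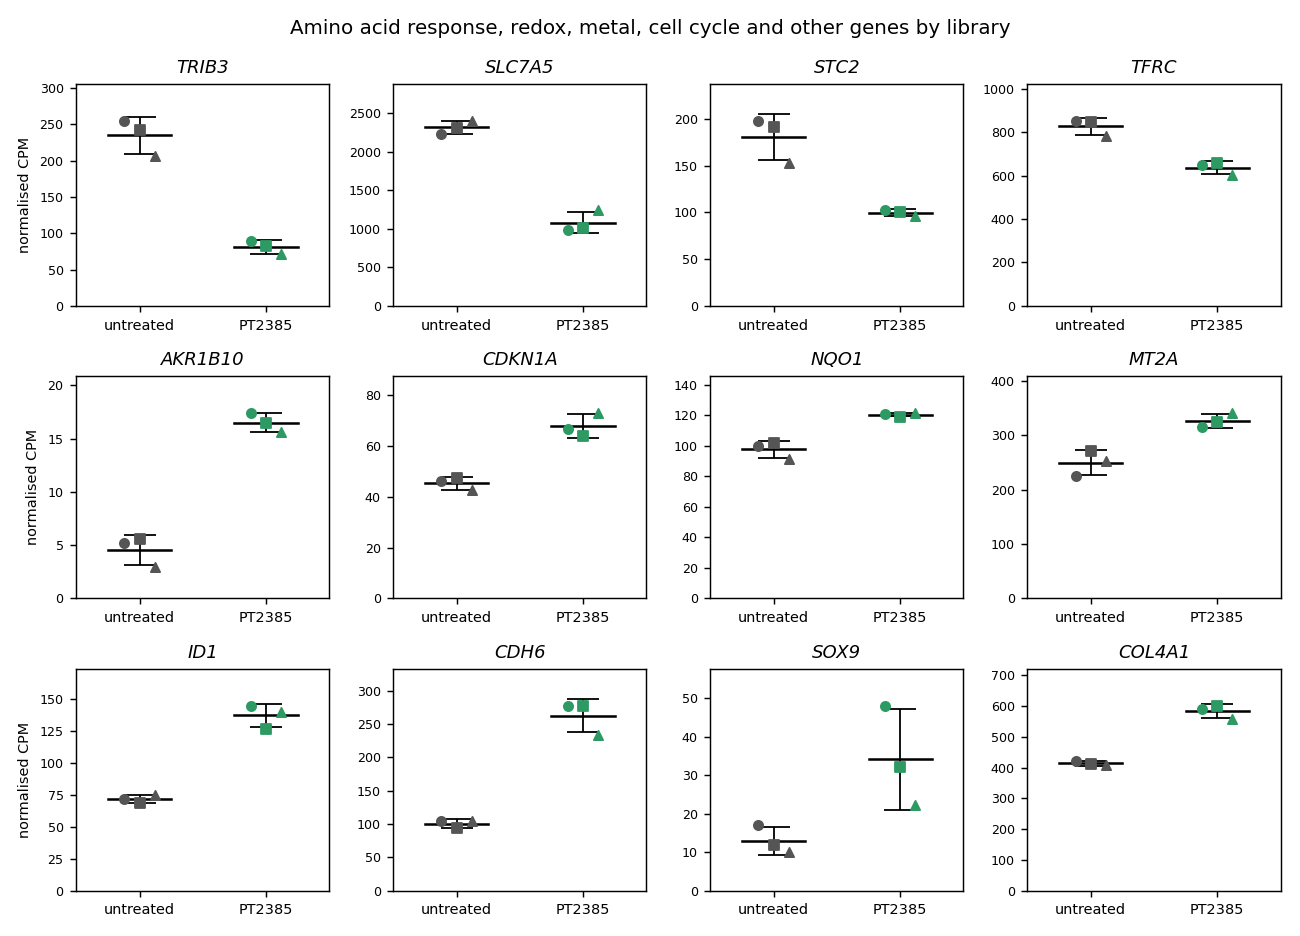
Normalised CPM of 12 genes in each library, with untreated libraries in grey and PT2385 libraries in green, circles, squares and triangles for replicates 1, 2 and 3, and lines and bars for the mean and SD of 3 libraries. TRIB3, SLC7A5, STC2 and TFRC are lower and the other 8 genes higher with PT2385, with no overlap between the groups in any of the 12 panels.

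Transcription factors of the kidney lineage had 3 of 22 tested members higher and 2 lower. PAX8, the lineage factor that is kept in renal carcinoma, was not called, with 617, 632 and 626 CPM untreated and 564, 626 and 571 CPM treated (log2 fold change -0.0923, edgeR adjusted p = 0.39). PAX2 measured 33.2, 31.2 and 38.6 CPM and 21.8, 26.8 and 27.3 CPM (-0.44) and WT1 27.3, 32.4 and 35.8 CPM and 19.2, 17.6 and 25 CPM (-0.62). FOXD1, a stromal progenitor factor, rose from 12.8, 15.9 and 19.2 CPM to 20.9, 24.3 and 29.5 CPM (0.65). These 3 calls were lost in 5, 3 and 3 of 6 fits with 1 library left out, up to 0.143 without untreated replicate 3, 0.0794 without PT2385 replicate 2 and 0.11 without untreated replicate 1. Tubule transport and metabolism had 3 of 20 tested members higher and 4 lower. KCNJ16 measured 25.7, 24.8 and 23.2 CPM and 67.1, 56.8 and 46 CPM (standard error 0.12). ATP1B1, the sodium pump β1 gene, fell from 258, 220.2 and 224 CPM to 144, 144 and 153 CPM (-0.67, adjusted p = 7.17e-05 by edgeR). MME, a brush border peptidase gene, fell from 16.4, 14.1 and 9.12 CPM to 5.01, 7.79 and 4.9 CPM (-1.16, lost without untreated replicate 2 at 0.0533). SLC22A4 fell too (-0.53, lost in 3 of 6 fits, up to 0.0913 without untreated replicate 2). It overlaps P4HA2 on the opposite strand, which has more reads and was itself called lower, so SLC22A4 may hold some of its reads. LRP2, the gene of the proximal tubule endocytic receptor megalin, had 0 counts in all 6 libraries. For acid-base and ion transport 2 of 18 tested members rose and 3 fell. KCNMA1, the large-conductance potassium channel gene, fell from 366, 349.7 and 366 CPM to 194, 202 and 201 CPM (-0.86, standard error 0.0553), and CA2, a cytosolic carbonic anhydrase gene, rose from 24.2, 19.1 and 20.7 CPM to 32.2, 31.8 and 32.7 CPM (0.59). KCNK3 (0.51) rose and TRPC1 (-0.39) fell, each lost in 5 of 6 fits with 1 library left out (up to 0.139 without untreated replicate 1 and 0.147 without untreated replicate 2).

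Immediate early genes were lower in 5 of 22 tested members and higher in 1, and lower in 10 and higher in 2 with the block. DUSP1, a MAP kinase phosphatase gene, measured 95.1, 78.5 and 74.9 CPM in untreated and 58.8, 47.8 and 42.2 CPM in treated libraries (log2 fold change -0.74, standard error 0.12, edgeR adjusted p = 0.00199). ZFP36, which destabilises cytokine mRNAs, measured 8.43, 10.1 and 9.12 CPM and 5.58, 4.27 and 3.92 CPM (-1.01). EGR1 rose from low counts, 1.27, 0.331 and 0.753 CPM and 4.2, 1.35 and 2.45 CPM (1.75, lost in 4 of 6 fits with 1 library left out, up to 0.19 without untreated replicate 2). FOS had at most 7 counts in a library and was not tested. The clock list had 2 of 15 tested members lower, BHLHE40 and NFIL3 (-0.67), or 13.3% called against 7.70% of all genes. With the block 2 were higher and 2 lower (26.7%, against 15.3%). Of 31 tested autophagy, mitophagy and cell death genes 2 rose and 3 fell, with 5 and 4 under the block, and besides BNIP3L these included the mitophagy kinase gene PINK1 (-0.41) and the decoy receptor gene TNFRSF10D (-0.44). With 1 library left out their adjusted p reached 0.0912 without untreated replicate 2 and 0.156 without PT2385 replicate 2.

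Respiratory chain and TCA cycle genes changed by small amounts in the positive direction. Of 42 tested members 35 were positive, with a median log2 fold change of 0.075. Called were 3 higher and 1 lower, or 9.52% of members against 7.70% of all genes. With the block 9 were higher and 2 lower (background 6.83% and 8.45%). ATP5F1A, the catalytic-head α subunit of ATP synthase, measured 218, 222 and 245 CPM and 255, 276 and 296 CPM (0.27, edgeR adjusted p = 0.0378). ATP5MC1 rose by 0.37 and SDHB by 0.27. The 3 calls were lost in 4, 3 and 6 of 6 fits with 1 library left out (up to 0.163 and 0.133 without untreated replicate 1 and 0.139 without untreated replicate 2). PC, the gene of pyruvate carboxylase, fell from 33.6, 25.7 and 25.2 CPM to 17.8, 17.5 and 15.7 CPM (-0.73, adjusted p = 0.00284 by edgeR). NDUFA4L2, a HIF-induced subunit that lowers complex I activity, had at most 11 counts in a library and was not tested. Chromatin regulators were called higher in 5 of 26 tested members and lower in none (background 3.08% and 4.62%), and higher in 6 and lower in 2 with the block. The list as a whole did not lean to 1 side, with 13 members positive, 13 negative and a median log2 fold change of 0.002. The histone demethylase gene KDM5B measured 46.1, 39.6 and 34.2 CPM and 66.5, 54.7 and 54.4 CPM (0.55), PHF8 (0.29), KDM6B (0.3) and DNMT3A (1.07) rose by edgeR's test, and KDM3A, a HIF-induced demethylase gene, was not called (-0.18, adjusted p = 0.166 by edgeR). The calls of KDM5B, PHF8, KDM6B and DNMT3A were lost in 1, 3, 6 and 4 of 6 fits with 1 library left out, up to 0.0601, 0.105 and 0.181 without untreated replicate 2 and 0.159 without PT2385 replicate 2. None of 55 tested cytosolic ribosomal protein genes was called without and 3 with the block, and their log2 fold changes ran from -0.1 to 0.19. Like the respiratory chain genes they leaned to the positive side, with 48 of 55 positive and a median of 0.054.

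**Figure D5:**
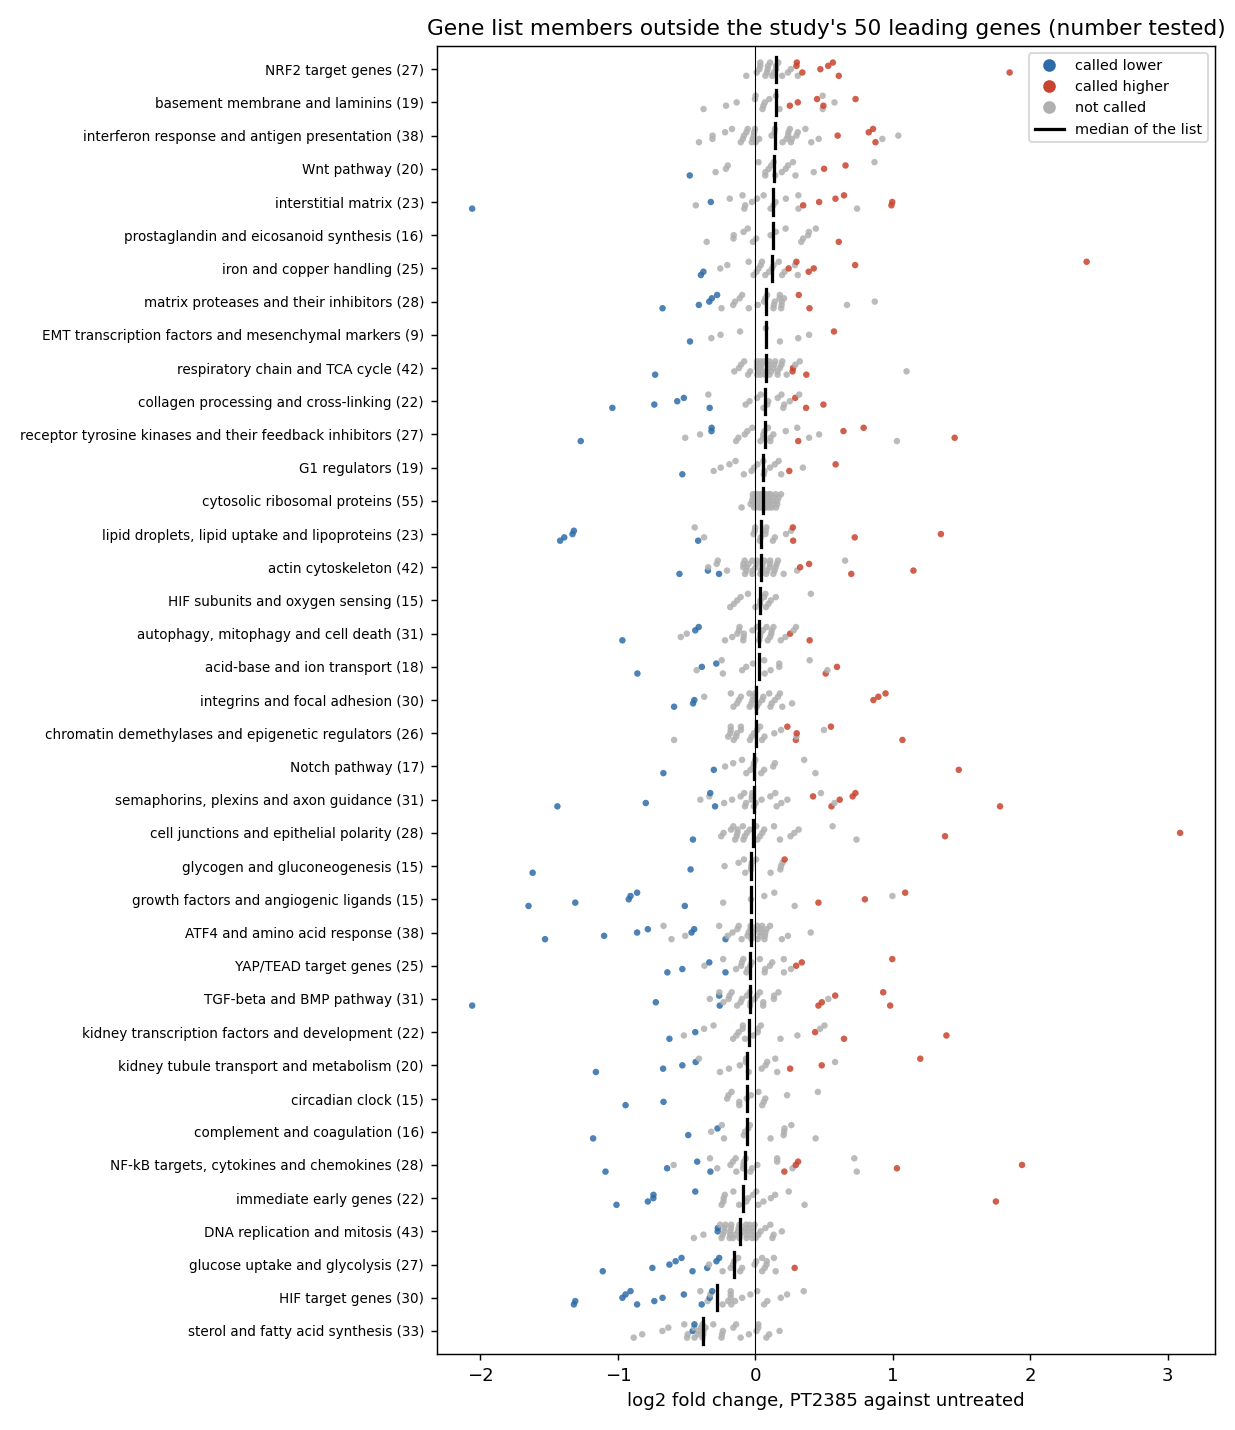
Log2 fold changes of PT2385 against untreated for the tested members of 39 gene lists outside the study's 50 leading genes, with the number tested in brackets, blue for members called lower, red for called higher, grey for the others and a black line for the median of each list. Lists are ordered by their median, from sterol and fatty acid synthesis (-0.379) and HIF target genes (-0.276) at the bottom to NRF2 target genes (0.151) at the top, and most lists are centred near 0 with single members far out.

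The 39 lists hold 197 of the 1114 called genes outside the 50, so most of the called genes belong to none of them. Of 1840 tested long noncoding RNAs 84 (4.57%) were called lower, near the 4.62% of all tested genes, and 14 (0.761%) higher, against 3.08% of all, and 173 were called with the block. Of 11732 tested protein-coding genes 575 (4.90%) were lower and 448 (3.82%) higher. MIR193BHG, the host of miR-193b, measured 53, 49 and 49.7 CPM untreated and 14.6, 18.2 and 17.1 CPM treated (log2 fold change -1.6, edgeR adjusted p = 4.51e-07). APCDD1L-DT measured 96.2, 90.9 and 102 CPM and 55.7, 59.2 and 57.2 CPM (-0.75). MIR155HG, the host of miR-155, measured 16.8, 15.8 and 18.2 CPM and 11.1, 8.69 and 10.6 CPM (-0.74). LINC02188, from 5.82, 5.3 and 5.36 CPM to 10.3, 11.4 and 13.5 CPM (1.1), and MIR1915HG, from 13.8, 11.5 and 12 CPM to 23.5, 21 and 25.6 CPM (0.91), were among those that rose. These 5 were chosen after their values were seen, and no mature miRNA was measured.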

How the data were processed

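Gene expression was measured by RNA sequencing in 3 untreated and 3 PT2385-treated libraries of 786-0 cells, with groups and replicate numbers taken from the sample labels. The authors trimmed reads with cutadapt, aligned them to GRCh38 with STAR and deposited raw read counts per gene from featureCounts, and versions, the strand setting and the annotation release are not given in the sources used here. Of the 58735 identifiers of the table, 58207 could be given a symbol and position from the GENCODE annotation of the reference. Total counts were 11881000 to 14318384 per library, and counting intervals were not computed since the spread between replicates is the error used.

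Counts were tested with edgeR 4.0.16 (R 4.3.3) after filterByExpr and TMM normalisation, with glmQLFit and glmQLFTest and Benjamini-Hochberg adjustment over all 15089 genes tested at a threshold of 0.05. CPM used the TMM-scaled library sizes. The script was tested on simulated data before use. Libraries with the same number deviated together from their group means (correlations of 0.461, 0.136 and 0.431 over 10022 genes, against -0.454 to 0.0892 for different numbers), so a fit with the replicate number as a block was made too. Alternatives were DESeq2 1.42.0, other size factors, filters and thresholds, all 9 libraries in 1 model, and leaving out each library in turn.

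The members and gene lists were chosen with earlier results of these data known. Genes named are the members of the list of HIF subunits and oxygen sensing, the 10 called genes that changed most in either direction with at least 100 counts on average and no overlap between the groups, and in each list the first gene as written and up to 4 called genes with the largest change and at least 20 counts, all outside the 50 genes put forward by the study except where said. Some genes that the rule names are not reported here. Of the 166 tested genes named by this rule and reported, 92 overlap another gene in the annotation and 15 a gene with more reads, and without a known strand setting reads of overlapping genes cannot be told apart. Promoter windows came from RefSeq on GRCh38.p14.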

Additional observations from a re-analysis of the deposited data

How the results depend on the processing

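The 1162 calls (465 higher, 697 lower) became 1072 with DESeq2, 1164 with RLE size factors, 1168 with library sizes alone, 1103 with at least 10 counts in every library, 1701 with no filter and 953 with all 9 libraries in 1 model. They became 516 (148 higher, 368 lower) at an adjusted p under 0.01, 172 (32 higher, 140 lower) against a 1.5-fold change and 2305 (1030 higher, 1275 lower) with the replicate block. With 1 library left out they ranged from 574 to 1451, those higher from 179 to 516 and those lower from 395 to 935. Decreases outnumbered increases in each of these fits.

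Of the 221 tested genes given with values, DESeq2 lost the calls of CCND3, FERMT1, TGFB3, GBP2, SDHB and KDM6B and gained SREBF2 and SEMA3C, library sizes alone lost CD46 and TRPC1, and all 9 libraries lost 28, among them HK2, PKM, PLAU and CXCL8. The replicate block gained 15, each given with both fits, and lost none. The number of called members rose by over 1.5 times with the block in 18 lists, each given with both fits, and in the other lists with calls by at most 1.5 times, as from 9 to 13 for the NF-κB and the TGF-β lists, 8 to 12 for iron and copper, 9 to 12 for lipid droplets, 8 to 11 for NRF2 targets, 7 to 10 for proteases and 6 to 9 for integrins. With no filter 3 were lost and 11 gained, among them INSIG1 and SCD at adjusted p of 8.81e-33 and 2.85e-40, and the cause was not tested. Of the 139 called genes named by the rule and reported, 85 kept their call in all 6 fits with 1 library left out. Signs turned for genes that were not called. With 1 library left out the log2 fold change ranged from -0.0527 to 0.102 for CUL2, -0.032 to 0.0309 for CREBBP, -0.0741 to 0.0304 for ITGB1, -0.116 to 0.0475 for NFKBIA, -0.267 to 0.0666 for SREBF1 and -0.0102 to 0.0613 for ACLY, and it was 0.00118 for ITGB1 with library sizes alone.

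With library sizes alone the median log2 fold change was 0.17 for the basement membrane list, 0.01 for the Notch list and 0.045 for the acid-base list, and 0.022 over all genes. With 1 library left out the medians ranged from -0.307 to -0.195 for HIF targets, -0.071 to 0.001 for glycogen, -0.17 to 0.046 for growth factors, 0.025 to 0.081 for lipid droplets, -0.051 to 0.106 for G1 regulators, 0.105 to 0.177 for basement membrane, 0.069 to 0.161 for interstitial matrix, 0.027 to 0.078 for collagen processing, 0.026 to 0.14 for proteases, -0.015 to 0.045 for integrins, -0.041 to 0.052 for semaphorins, -0.036 to 0.039 for Notch, -0.058 to -0.008 for TGF-β and BMP, 0.129 to 0.193 for NRF2 targets, -0.08 to -0.012 for kidney factors, -0.07 to 0.051 for tubule transport and -0.035 to 0.075 for acid-base transport. The median of sterol and fatty acid synthesis ranged from -0.502 to -0.222. Apart from the last, these shifts exceeded the spread of the median between replicates in at least 1 fit, and the other lists stayed within it. With 3 libraries a group, small changes near the threshold rest on single libraries, and a gene that was not called is not shown to be unchanged.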

Other observations

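Among called genes that belong to none of the lists and not to the 50, several well counted ones were picked after their values were seen. Of transcription factor genes, ZHX2, a zinc finger and homeobox repressor gene, measured 145, 119 and 128 CPM in untreated and 50, 42 and 49.4 CPM in treated libraries (log2 fold change -1.47, edgeR adjusted p = 6.72e-07), and KLF7, a Krüppel-like factor gene, measured 129.7, 129.8 and 119 CPM and 50.9, 54.5 and 53.5 CPM (-1.25). SYTL3, coding for a Rab effector of vesicle traffic, went from 119, 108 and 127 CPM to 44, 41.4 and 40.5 CPM (-1.49), and FRMD4A, a FERM domain scaffold gene, from 164, 169 and 176 CPM to 62.5, 71.6 and 64.9 CPM (-1.35). IGFBP1, the gene of a secreted binder of insulin-like growth factors, fell from 8.94, 13.5 and 14.1 CPM to 4.28, 6.14 and 6.51 CPM (-1.10, adjusted p = 0.00494 by edgeR). For all 5 the groups did not overlap.

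Genes that rose in the same selection included ALDH1A1, a retinaldehyde dehydrogenase gene, with 62.4, 49.3 and 60.4 CPM untreated and 114, 115 and 119 CPM treated (1.02, adjusted p = 9.1e-06 by edgeR). TNIK, a kinase gene of the Wnt and JNK pathways, measured 87.6, 79.6 and 77.5 CPM and 175, 175 and 149 CPM (1.03), and the death receptor gene TNFRSF21 17, 14.9 and 17.5 CPM and 28.7, 37.8 and 39.8 CPM (1.11). KITLG, coding for the ligand of the KIT receptor, measured 56.8, 54.2 and 63.6 CPM and 118, 106 and 85.8 CPM (0.83). SLC30A1, the zinc exporter gene of the plasma membrane, rose from 37.6, 41.9 and 50.9 CPM to 76.9, 79.7 and 86.7 CPM (0.90, adjusted p = 0.000114 by edgeR), beside the metallothionein genes that rose. These 10 calls were kept in all 6 fits with 1 library left out, at adjusted p up to 0.0391, for IGFBP1 without untreated replicate 2.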
